A study of Canis lupus familiaris with 12 samples.

Results

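The heavy and light chains of nonmuscle myosin II (NM2) are the 6 genes MYH9, MYH10, MYH14, MYL9, MYL6, and MYL12B, taken by name from the 13672 genes whose mRNA levels were measured by RNASeq. All 6 were listed, and all 6 passed the filter on low values that left 12650 genes for testing. An NM2 molecule is a hexamer. It holds a pair of heavy chains, whose heads bind actin and hydrolyze ATP and whose coiled-coil rods assemble into bipolar filaments, and on each heavy chain 1 essential and 1 regulatory light chain. MYH9, MYH10, and MYH14 encode the heavy chains of NM2A, NM2B, and NM2C. MYL9 and MYL12B encode regulatory light chains, whose phosphorylation switches the motor on, and MYL6 encodes the essential light chain that stabilizes the lever arm of the head. In epithelial cells NM2 filaments pull on the actin belt at the apical junctions, and cingulin (CGN) and paracingulin (CGNL1) are junctional proteins with coiled-coil rods of their own.

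The cells were MDCKII cells, an epithelial line from dog kidney. WT cells carried no knockout, CGN-KO cells (clone 1G8) lacked cingulin, CGNL1-KO cells (clone 22) lacked paracingulin, and double-KO cells (clone 21D3) lacked both. The knockouts were made with CRISPR/Cas9, no group received a treatment, and each KO genotype was 1 clone, so the knockout and other differences of that clone cannot be told apart. Each of the 4 genotypes was sequenced as 3 libraries of 16837532 to 30086076 reads, and the libraries are given below in the order 1, 2, and 3, where the first double-KO library carries no number in the table. The labels do not say whether the libraries of a genotype came from separate cultures, so each p-value measures the spread between these libraries, which may be technical.

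The check of the labels preceded the members. CGN mRNA averaged 214 ± 17.2 counts per 1000000 reads (CPM) in WT cells (SD, n = 3, as in all values below), 50.6 ± 5.17 CPM in CGN-KO cells, 204 ± 7.71 CPM in CGNL1-KO cells, and 42.2 ± 2.87 CPM in double-KO cells. CGNL1 mRNA averaged 9.74 ± 2.30 CPM in WT, 5.99 ± 0.944 CPM in CGN-KO, 2.34 ± 0.634 CPM in CGNL1-KO, and 1.49 ± 0.335 CPM in double-KO cells. All 7 epithelial markers of a fixed list, CDH1 and EPCAM among them, were listed. Their summed level was 5805 to 5968 CPM in the WT libraries, 5483 to 5575 CPM in CGN-KO, 5734 to 5901 CPM in CGNL1-KO, and 5514 to 5616 CPM in double-KO cells, so CGN-KO and double-KO cells lay below WT. Single markers went both ways. EPCAM was at 555 to 612 CPM in WT and at 689 CPM or more in all KO libraries, and CLDN4 was at 316 to 356 CPM in WT and at 306 CPM or less in all KO libraries. Of 7 smooth and striated muscle markers only ACTA2 was listed, at 0.0968 to 0.589 CPM, and MYH11, DES, and CNN1 were not. Of the fibroblast, endothelial, and blood lists, 1 of 6, 1 of 3, and 1 of 3 genes were listed (PDGFRA, KDR, and CD68), and COL1A1, PECAM1, and PTPRC were not. PDGFRA was at 2.705 to 5.48 CPM in WT, 5.88 to 11.1 CPM in CGN-KO, 3.75 to 9.81 CPM in CGNL1-KO, and 4.94 to 6.996 CPM in double-KO cells, so only the CGN-KO libraries lay above WT without overlap. KDR was at 1.12 to 1.77 CPM in WT, 0.758 to 0.938 CPM in CGN-KO, 1.92 to 2.41 CPM in CGNL1-KO, and 0.0969 to 0.284 CPM in double-KO cells, 4 ranges that did not overlap. CD68 stayed between 0.560 and 1.34 CPM, with overlap throughout.

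Of the 6 chains, MYH14 and MYL9 differed among the genotypes, and both were higher in every KO line than in WT cells. The other 4 chains passed the test in none of the 6 comparisons. In the comparison of all 4 genotypes by limma's moderated F test, 2 of the 6 chains were called at an adjusted p below 0.05 (Benjamini-Hochberg over all genes tested), where 29.9% of all genes tested were called. Against WT cells 2 of 6 were called in each KO line, and both were higher each time. The background was 19.0% of genes called in CGN-KO cells (11.2% called higher), 10.3% in CGNL1-KO cells (6.81% higher), and 26.3% in double-KO cells (14.8% higher). A count of 2 of 6 is too small to set apart from these shares, and the genes are therefore described one by one. In RNA from whole cultures, fewer cells with an mRNA and less of it per cell cannot be told apart. At the additional threshold of a 2-fold change, 1 chain was called in CGN-KO cells, 0 in CGNL1-KO cells, and 1 in double-KO cells, with 1.31%, 0.617%, and 1.41% of all genes called. The median difference of the 6 chains from WT cells was 0.07, 0.10, and 0.14 on the log2 scale in CGN-KO, CGNL1-KO, and double-KO cells, beside -0.0038, -0.0031, and -0.0003 over all genes tested. The 3 comparisons share the WT libraries and are therefore not independent.

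**Figure D1:**
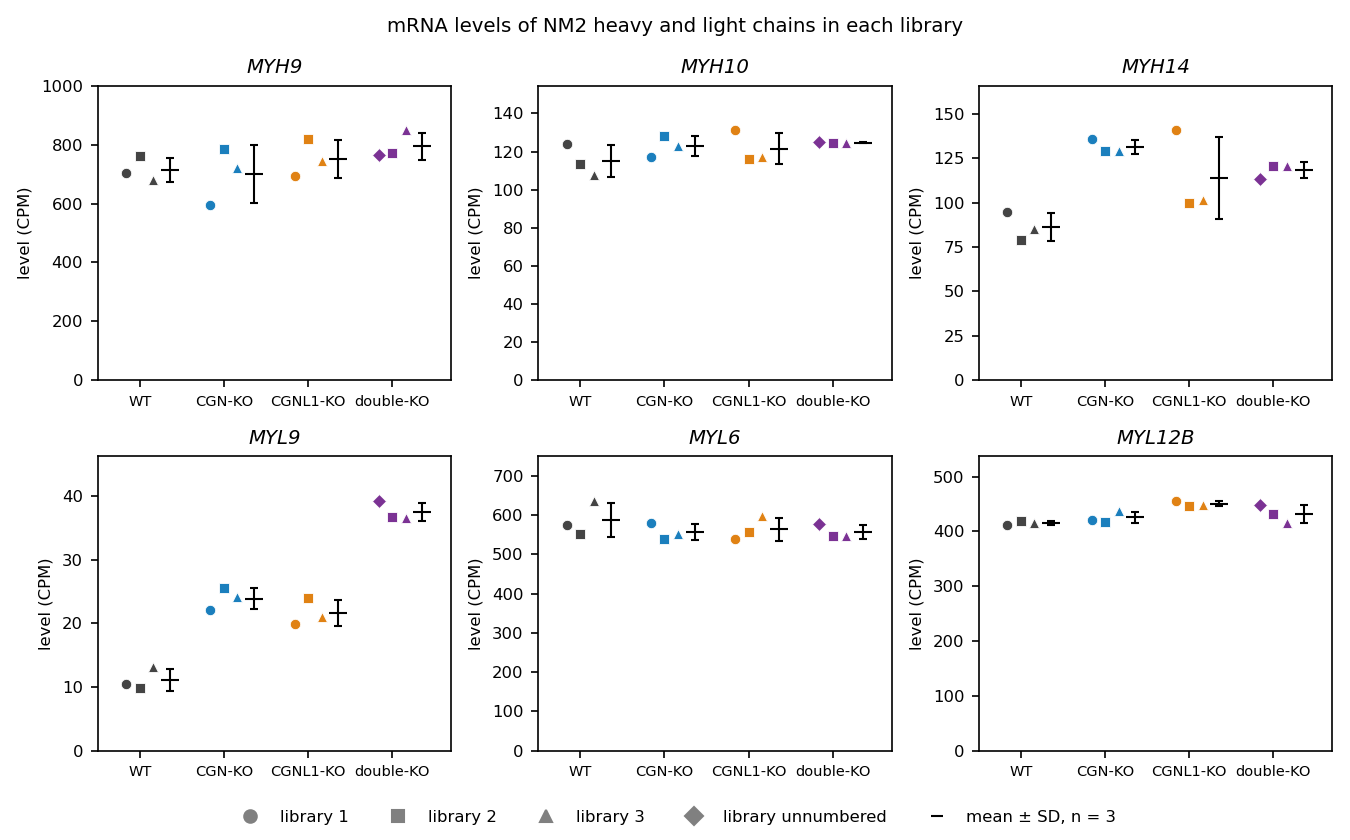
Level of each chain gene in CPM (vertical axis, from 0, a scale of its own in each panel) in every library of the 4 genotypes. Each symbol is 1 library and its shape gives the library number, and the black marks show mean ± SD (n = 3). In the MYL9 panel the WT libraries lie at 9.88 to 13.1 CPM, both single KO lines at 19.97 to 25.5 CPM, and the double-KO libraries at 36.6 to 39.2 CPM.

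MYH9 (NM2A) differed little between the genotypes. The 3 WT libraries gave 704, 761, and 681 CPM. CGN-KO cells gave 595, 787, and 721 CPM, CGNL1-KO cells gave 693, 821, and 746 CPM, and double-KO cells gave 767, 772, and 849 CPM. The lowest and the highest WT value lay inside the CGN-KO range, and the CGNL1-KO and WT ranges overlapped as well. The double-KO libraries all lay above the WT libraries, with a mean of 796 ± 45.9 CPM against 715 ± 40.7 CPM. This difference of 0.15 on the scale of log2(CPM + 1) had 95% limits of -0.04 and 0.34 and did not pass the test (limma, adjusted p = 0.226). In order of mean level, CGN-KO (701 ± 97.6 CPM), WT, CGNL1-KO (753 ± 64.3 CPM), and double-KO cells followed each other, and no neighbours in this order differed beyond their spread (F test, adjusted p = 0.317). The limits of the other differences from WT cells reached from -0.23 to 0.15 in CGN-KO and from -0.12 to 0.26 in CGNL1-KO cells.

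MYH10 (NM2B) was the heavy chain with the narrowest limits. Its level was 124, 113, and 107 CPM in WT cells. In CGN-KO cells it was 117, 128, and 123 CPM, in CGNL1-KO cells 131, 116, and 117 CPM, and in double-KO cells 125, 124, and 125 CPM. The double-KO values lay just above the highest WT value and the ranges of the single KO lines overlapped with WT. Means were 115 ± 8.44, 123 ± 5.49, 122 ± 8.30, and 125 ± 0.374 CPM, in the same order. The differences from WT were 0.10, 0.08, and 0.12 on the log2(CPM + 1) scale, with upper 95% limits of 0.23, 0.21, and 0.25, and none passed the test (limma, adjusted p = 0.303, 0.506, and 0.179). Among the genotypes as a whole the adjusted p was 0.416.

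MYH14 (NM2C) was higher in all 3 KO lines than in WT cells, by a factor of 1.33 to 1.53 in mean CPM. WT libraries gave 94.5, 78.9, and 84.9 CPM. CGN-KO libraries gave 136, 129, and 129 CPM, CGNL1-KO libraries gave 141, 100, and 102 CPM, and double-KO libraries gave 113, 121, and 121 CPM. All 9 KO libraries lay above all 3 WT libraries, and CGNL1-KO library 1 stood apart from the other two libraries of its genotype. On the log2(CPM + 1) scale MYH14 was higher than in WT by 0.61 ± 0.10 (SE) in CGN-KO, 0.39 ± 0.10 in the CGNL1-KO line, and 0.46 ± 0.10 in double-KO cells (limma, adjusted p = 0.000418, 0.0201, and 0.00306). The call in CGNL1-KO cells was lost in a fit of the CGNL1-KO and WT libraries alone (adjusted p = 0.0779), without WT library 2 (0.33, adjusted p = 0.105), and without WT library 3 (0.38, adjusted p = 0.0666). Without CGNL1-KO library 1 the difference was 0.23 and the call held (adjusted p = 0.0386).

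The KO lines could not be put in a firm order by MYH14. Their means were 132 ± 3.91 CPM in CGN-KO, 118 ± 4.43 CPM in double-KO, and 114 ± 23.1 CPM in CGNL1-KO cells. Between the single KO lines 0 of 6 chains were called, where 5.19% of all genes were called, and MYH14 differed by 0.22 with 95% limits of 0.01 and 0.43 (limma, adjusted p = 0.264). The same-numbered libraries of these lines deviated together for the numbers 1 and 2, while number 3 marked no clear pair. With the replicate number as a block, a fit that leaves out the unnumbered double-KO library, the MYH14 difference passed the test (limma, adjusted p = 0.0349). It also passed when only the CGN-KO and CGNL1-KO libraries entered the blocked fit (limma, adjusted p = 0.00991), a fit chosen after seeing the data. Unblocked, it passed without CGNL1-KO library 1 (0.38, limma, adjusted p = 0.00161). CGN-KO was higher in 2 of the 3 pairs, with differences of -0.05, 0.37, and 0.34 for the numbers 1, 2, and 3. Between double-KO and CGNL1-KO cells MYH14 was not called (0.07, adjusted p = 0.715), and it was called when CGNL1-KO library 1 was left out (0.23, adjusted p = 0.0319). The double-KO libraries all lay below the CGN-KO libraries, and this difference of -0.15 did not pass the test (adjusted p = 0.41). Library 1 held the highest MYH14 value of WT and of both single KO lines. Within library numbers, the difference from WT was 0.52, 0.71, and 0.60 in CGN-KO cells and 0.57, 0.34, and 0.26 in CGNL1-KO cells for the numbers 1, 2, and 3. The lack of overlap with WT fixed the sign of all 6, which therefore adds no support.

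**Figure D2:**
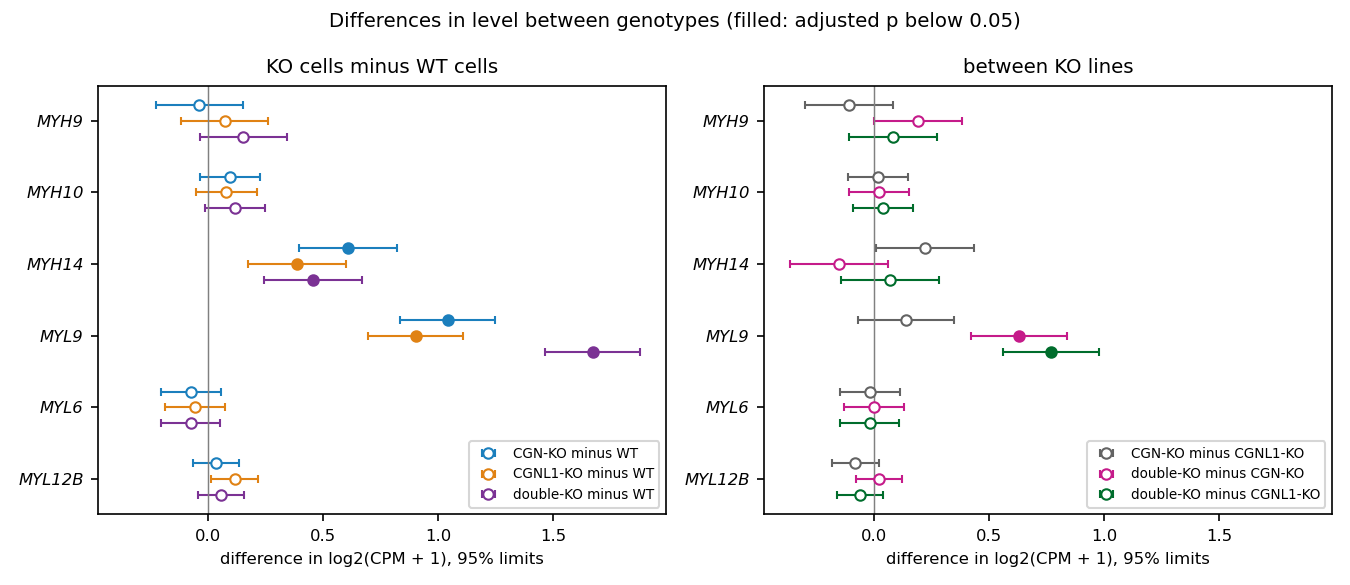
Difference in log2(CPM + 1) between genotypes (horizontal axis) for each chain gene, KO minus WT at left and between KO lines at right, with 95% limits from limma and filled symbols for an adjusted p below 0.05. Only MYH14 and MYL9 have filled symbols against WT, and only MYL9 between KO lines, in the double-KO comparisons (0.63 and 0.77).

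MYL9, the regulatory light chain best known from smooth muscle and contractile nonmuscle cells, had the largest differences from WT of the 6 genes in all 3 KO lines. Its level was 10.5, 9.88, and 13.1 CPM in the WT libraries, which rested on 178, 179, and 274 reads. In CGN-KO cells it was 22.1, 25.5, and 24.1 CPM, in CGNL1-KO cells 19.97, 24.0, and 21.0 CPM, and in double-KO cells 39.2, 36.7, and 36.6 CPM. The libraries fell on 3 levels that did not overlap: WT lowest, the single KO lines in the middle, and double-KO cells on top. Mean levels were 11.2 ± 1.71 CPM in WT, 23.9 ± 1.71 CPM in CGN-KO, 21.7 ± 2.07 CPM in CGNL1-KO, and 37.5 ± 1.48 CPM in double-KO cells, which is 2.14, 1.94, and 3.36 times the WT mean. Differences from WT on the log2(CPM + 1) scale, which slightly understates a low gene, were 1.04 ± 0.10 (SE), 0.90 ± 0.10, and 1.67 ± 0.10 (limma, adjusted p = 1.45e-06, 1.32e-05, and 6.28e-09). The 2-fold threshold was met in CGN-KO and double-KO cells. In CGN-KO cells it was not met without WT library 2 (0.97) or without CGN-KO library 2 (0.996), and in CGNL1-KO cells it was met without WT library 3 (1.01), while the call itself held in each of these fits. The PDGFRA level given above was also higher in CGN-KO cells than in WT without overlap, while KDR was lower in CGN-KO and double-KO and higher in CGNL1-KO cells, and what part these have in the MYL9 and MYH14 differences was not tested.

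In double-KO cells MYL9 was also higher than in either single KO line. It exceeded the CGN-KO level by 0.63 (95% limits 0.42 and 0.84, limma, adjusted p = 0.000922) and the CGNL1-KO level by 0.77 (limits 0.56 and 0.98, adjusted p = 6.97e-05). MYL9 was the 1 chain of 6 called in each of these comparisons, in which 8.84% and 14.4% of all genes were called. CGN-KO and CGNL1-KO cells overlapped, with a difference of 0.14 (limits -0.07 and 0.35, adjusted p = 0.511). Within the library numbers MYL9 differed from WT by 0.83 to 1.29 in CGN-KO and by 0.64 to 1.20 in CGNL1-KO cells. The lack of overlap with WT fixed the sign of these differences, which adds no support. MYL9 was higher in CGN-KO than in CGNL1-KO cells in 3 of 3 pairs by 0.09 to 0.19.

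MYL12B, the other regulatory light chain of the set, stayed within a narrow band. It gave 412, 419, and 416 CPM in WT, 422, 418, and 437 CPM in CGN-KO, 455, 446, and 449 CPM in CGNL1-KO, and 449, 432, and 415 CPM in double-KO cells. The CGNL1-KO libraries lay above all WT and all CGN-KO libraries, while the double-KO values spread over both. CGNL1-KO cells averaged 450 ± 4.59 CPM against 415 ± 3.45 CPM in WT, a difference of 0.12 on the log2(CPM + 1) scale with limits of 0.01 and 0.22, which missed the threshold after adjustment (limma, unadjusted p = 0.0272, adjusted p = 0.152). MYL12B has a near-identical paralog, MYL12A. That gene is not analysed here, and whether reads of both were counted to MYL12B is uncertain.

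MYL6, the essential light chain, showed no difference between any genotypes beyond the spread of its libraries. Its values were 574, 553, and 636 CPM in WT, 579, 540, and 553 CPM in CGN-KO, 540, 557, and 597 CPM in CGNL1-KO, and 577, 548, and 546 CPM in double-KO cells. All ranges overlapped, the WT mean of 588 ± 42.8 CPM was the highest, and the differences of KO from WT cells were -0.07, -0.06, and -0.08 with lower limits of -0.20, -0.19, and -0.20 (F test, adjusted p = 0.675).

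The mRNA of the NM2 chains was followed as the share of each gene in the heavy-chain or the light-chain reads of a library. Protein was not measured in these libraries. By immunoblot of WT, single-KO, and double-KO MDCK cells, the authors found the NM2 heavy chains and total myosin light chains at similar protein levels. Longer mRNAs give more reads, and no transcript lengths were at hand, so a share of reads is not a share of molecules. The widest 95% Wilson intervals of these shares, which cover counting error only, reached 0.745 percentage points to either side. The sum of the heavy chains averaged 916 ± 39.9, 955 ± 99.4, 989 ± 41.5, and 1039 ± 48.4 CPM in WT, CGN-KO, CGNL1-KO, and double-KO cells, and that of the light chains 1014 ± 44.0, 1007 ± 20.6, 1037 ± 27.3, and 1026 ± 34.3 CPM. The genotype means of the light-chain sum lay closer together than those of the heavy-chain sum.

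Among the heavy-chain reads, the mean MYH14 share was lowest in WT cells. MYH14 held 10.2%, 8.28%, and 9.72% in the WT libraries, 16.0%, 12.4%, and 13.3% in CGN-KO, 14.6%, 9.65%, and 10.5% in the CGNL1-KO line, and 11.3%, 11.9%, and 11.0% in double-KO cells. CGN-KO and double-KO cells lay above WT without overlap, and CGNL1-KO cells overlapped with WT. Means were 9.41% ± 1.02, 13.9% ± 1.90, 11.6% ± 2.64, and 11.4% ± 0.433, and the exact permutation test of the 4 genotypes (two-sided, 369600 assignments, smallest possible p = 6.49e-05) gave p = 0.0719. Blocked by library number, which leaves out the unnumbered double-KO library, the exact permutation gave p = 0.00868. This block treats the numbers as pairs in all 4 genotypes, which the double-KO libraries and WT library 3 did not bear out. Over the 12 unblocked exact tests that left out 1 library, p ranged from 0.00312, without CGNL1-KO library 1, to 0.182. The call changed in 1 of these 12.

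The mean MYH9 share was lowest in CGN-KO cells. MYH9 held 76.3%, 79.8%, and 78.0% in WT, 70.1%, 75.3%, and 74.1% in CGN-KO, 71.8%, 79.1%, and 77.3% in the CGNL1-KO line, and 76.3%, 75.9%, and 77.6% in double-KO cells. CGN-KO cells lay below WT, by 4.85 percentage points in the mean, and the other KO lines overlapped with WT (exact permutation test of the 4 genotypes, p = 0.197, with the replicate block p = 0.0295, and without CGNL1-KO library 1 p = 0.0251). MYH10 kept a mean share of 12.5% ± 0.802 in WT, 12.9% ± 0.809 in CGN-KO, 12.3% ± 1.20 in the CGNL1-KO line, and 12.01% ± 0.558 in double-KO cells, with overlap everywhere (exact permutation test, p = 0.636). A single pair of genotypes with 3 libraries each cannot reach an exact p below 0.1, so pairs are described by overlap.

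The ratio of NM2C to NM2B reads, in which MYH9 plays no part, separated WT from all KO libraries. MYH14 reads were 0.749 ± 0.0488 times the MYH10 reads in WT, 1.07 ± 0.0780 times in CGN-KO, 0.934 ± 0.122 times in CGNL1-KO, and 0.949 ± 0.0382 times in double-KO cells. The highest WT library stood at 0.790 and the lowest KO library at 0.861, and the 3 CGN-KO libraries were above 1, from 1.01 to 1.16. On the log2 scale the genotypes differed (exact permutation test, p = 0.00468). CGN-KO and CGNL1-KO libraries overlapped, and double-KO libraries lay below CGN-KO libraries.

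**Figure D3:**
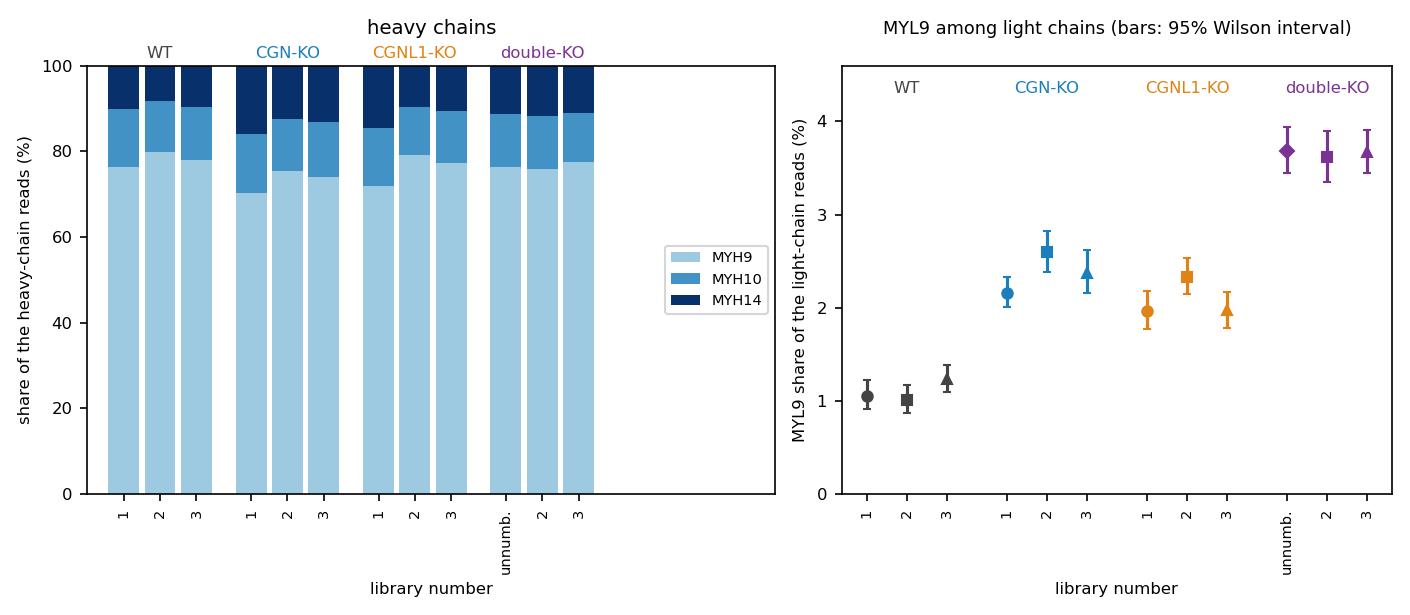
Left, share of MYH9, MYH10, and MYH14 in the heavy-chain reads of each library (%, stacked to 100), and right, share of MYL9 in the light-chain reads of each library (%, axis from 0, error bars are 95% Wilson intervals). The MYH14 segment is 8.28% to 10.2% in WT libraries, below all CGN-KO and double-KO libraries but overlapping with CGNL1-KO libraries, and the MYL9 share is 1.01% to 1.23% in WT and 3.61% to 3.69% in double-KO libraries.

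Among the light-chain reads, MYL9 held 1.05%, 1.01%, and 1.23% in WT libraries. Its share was 2.16%, 2.59%, and 2.38% in CGN-KO, 1.97%, 2.33%, and 1.97% in the CGNL1-KO line, and 3.69%, 3.61%, and 3.67% in double-KO cells. The order was that of its level, with the single KO lines overlapping each other and separate from both WT and double-KO cells (exact permutation test of the 4 genotypes, p = 0.00013). The double-KO mean of 3.66% ± 0.0375 was 2.56 percentage points above the WT mean of 1.10% ± 0.118. Counted among the regulatory chains only, MYL9 against MYL9 plus MYL12B, the share was 2.61% ± 0.391, 5.32% ± 0.395, 4.59% ± 0.459, and 7.996% ± 0.137 in WT, CGN-KO, CGNL1-KO, and double-KO cells.

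The mean share of MYL6 was highest in WT cells. It averaged 57.9% ± 1.70 in WT, 55.4% ± 1.12 in CGN-KO, 54.5% ± 1.39 in the CGNL1-KO line, and 54.3% ± 0.423 in double-KO cells (exact permutation test, p = 0.0286). WT libraries held 57.6%, 56.4%, and 59.7%, and all CGNL1-KO and double-KO libraries lay below them. This call did not hold with the replicate block (p = 0.059, exact permutation within numbers). It was also lost in 5 of the 12 exact tests that left out 1 library, which were those without WT library 1 (p = 0.0597), WT library 3 (p = 0.0964), CGNL1-KO library 2 (p = 0.0525), the unnumbered double-KO library (p = 0.056), and double-KO library 2 (p = 0.0569). MYL12B averaged 41.0% ± 1.82, 42.3% ± 0.968, 43.4% ± 1.38, and 42.1% ± 0.445 (exact permutation test, p = 0.193). The shares of one sum add up to 100%, so a gain of one chain is a loss of the others.

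MYL9 and MYH14 were set beside the genes around them, in the gene order of the RefSeq annotation of the dog assembly UU_Cfam_GSD_1.0, which placed 92.9% of the genes tested. The 10 tested genes on each side of MYL9, from SPAG4 to MANBAL, had a median difference from WT of 0.00097 in CGN-KO, 0.06 in the CGNL1-KO line, and -0.02 in double-KO cells on the log2(CPM + 1) scale, and none reached the 1.04, 0.90, and 1.67 of MYL9 itself. The largest of the flanking differences were 0.55, 0.31, and 0.42. Over all 316 tested genes of its chromosome the medians were 0.19, 0.20, and 0.14, and 76.6%, 82.6%, and 69.6% of these genes were above 0. In all 3 lines the chromosome as a whole thus stood above WT. What part this has in the MYL9 level was not tested, and the MYL9 differences exceeded those of 98.7%, 98.7%, and 100% of these genes.

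For MYH14 the surroundings differed between the lines. The 20 flanking genes, from VSIG10L to MED25, had medians of 0.09 and 0.0099 in the CGN-KO and the CGNL1-KO line, beside 0.61 and 0.39 for MYH14. In double-KO cells their median was 0.26 and 18 of 20 were above 0, beside 0.46 for MYH14, and the 687 tested genes of the chromosome had a median of 0.20 with 78.2% above 0. The chromosome of MYH14 as a whole thus stood above WT in double-KO cells, and what part this has in the MYH14 level was not tested. Against CGN-KO cells the double-KO chromosome median was 0.19 higher while MYH14 was 0.15 lower. The nearest tested gene on one side, LOC484365, named after its values were seen, stood at 0.49, 0.51, and 0.34 in the 3 lines. On the other side the nearest, NR1H2, stood at 0.23, 0.17, and 0.31. MYH9, MYH10, MYL6, and MYL12B lay on chromosomes whose medians were between -0.04 and 0.0021 against WT.

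**Figure D4:**
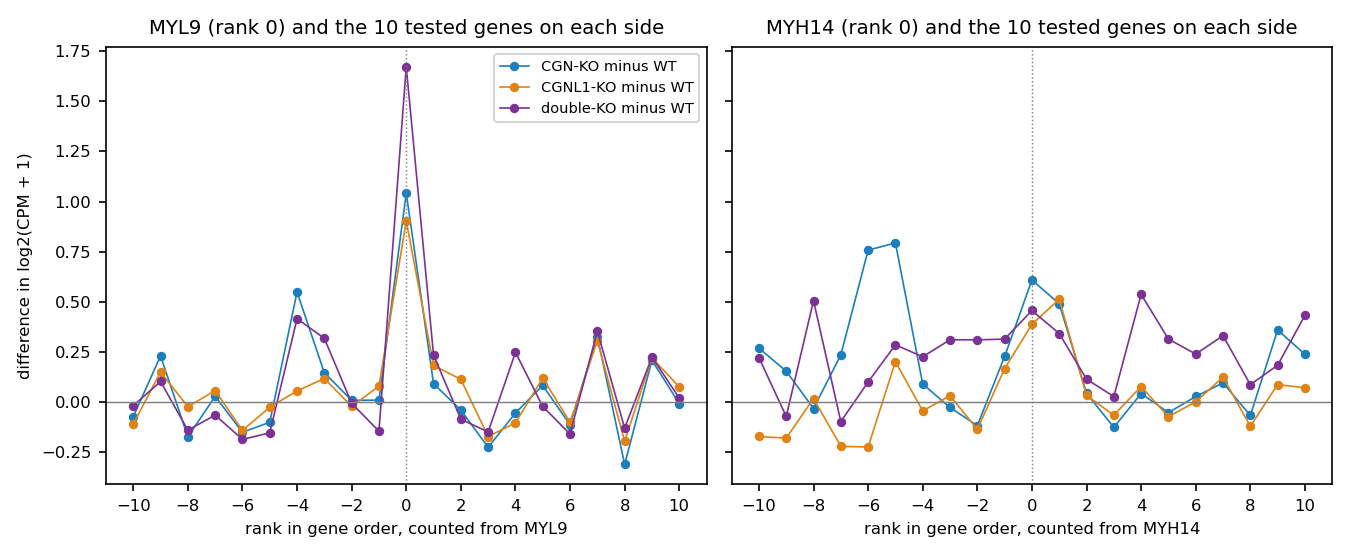
Difference in log2(CPM + 1) from WT (vertical axis) for MYL9, left, and MYH14, right, at rank 0 and for the 10 tested genes on each side in gene order (horizontal axis), with 1 line per KO genotype. MYL9 stands alone above flanking genes of at most 0.55. Around MYH14 the highest flanking gene exceeds it in each line, and 18 of 20 flanking genes of the double-KO line lie above 0.

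Other genes of the NM2 pathway were taken from a list of 41, of which 36 were listed and tested, and MYLK3, CALD1, TPM2, MYH11, and MYL12A were not among them. Against WT, 9 of 36 were called in CGN-KO (6 higher, 3 lower), 5 in CGNL1-KO (3 higher, 2 lower), and 13 in double-KO cells (8 higher, 5 lower), shares that can be read against the backgrounds of 19.0%, 10.3%, and 26.3%. The count of 5 in CGNL1-KO cells was 3 in a fit of the CGNL1-KO and WT libraries alone and in 8 of the 12 fits that left out 1 library, namely WT library 1 or 2, CGN-KO library 3, CGNL1-KO library 2 or 3, or any double-KO library. Their median difference was 0.0073, 0.02, and -0.02 on the log2(CPM + 1) scale. Of the kinases that phosphorylate the regulatory light chain or regulate its phosphatase, with RHOA, 3 of 9 were called in CGN-KO, 1 in the CGNL1-KO line, and 3 in double-KO cells. Of the subunits and inhibitors of myosin light-chain phosphatase, 1 of 6, 1 of 6, and 4 of 6 were called. Of the heavy-chain folding and assembly factors, 1 of 7, 0 of 7, and 1 of 7 were called, and of the scaffolds and filament partners, 3 of 11, 2 of 11, and 4 of 11. Of the other myosin II chains 1 of 3, MYL6B, was called in each line. Genes called with a fold of at least 1.5 against WT are described below.

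PPP1R14A encodes CPI-17, an inhibitor of myosin light-chain phosphatase. It was low in all cells, with 1.83, 1.77, and 2.25 CPM in WT libraries, 6.36, 5.28, and 5.14 CPM in CGN-KO, 3.77, 4.29, and 3.64 CPM in CGNL1-KO, and 6.35, 5.74, and 7.19 CPM in double-KO cells. All KO libraries lay above WT and the CGNL1-KO libraries lay below those of the other KO lines. Differences from WT were 1.16, 0.74, and 1.33 (limma, adjusted p = 3.29e-06, 0.000615, and 6.68e-07), and it was also higher in CGN-KO than in CGNL1-KO cells by 0.43 (adjusted p = 0.0488).

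ROCK2, a kinase downstream of RHOA that phosphorylates the regulatory light chain and the phosphatase, was lower in all 3 KO lines. Its level was 126, 121, and 111 CPM in WT, 80.0, 74.0, and 81.0 CPM in CGN-KO, 110, 94.1, and 103 CPM in CGNL1-KO, and 84.7, 80.9, and 82.3 CPM in double-KO cells. No KO library reached the lowest WT library, and CGNL1-KO cells stood between WT and the other KO lines. The differences were -0.60, -0.22, and -0.53 (limma, adjusted p = 5.97e-06, 0.0403, and 1.96e-05). ROCK1, its paralog, was called in no comparison with WT, at a mean of 79.1 CPM in WT and 71.9, 75.1, and 73.4 CPM in the KO lines. MYLK, the myosin light-chain kinase, was near the filter, at 0.766 to 1.05 CPM in WT (13 to 22 reads) and 1.29 to 2.47 CPM in CGN-KO cells. This was a difference of 0.61 (limma, adjusted p = 0.0293), with a CGN-KO mean 2.11 times that of WT. MYLK passed the test in neither of the other KO lines (adjusted p = 0.203 and 0.0672). LIMCH1, an activator of NM2A, was lower in double-KO cells, with a mean of 1.09 ± 0.195 CPM against 2.50 ± 0.370 CPM in WT. This mean was 0.435 times that of WT, a difference of -0.74 (limma, adjusted p = 0.00104) on a scale that understates low genes. It was also lower in CGNL1-KO cells, at a mean of 1.54 CPM (-0.47, adjusted p = 0.0457), and lower in double-KO than in CGN-KO cells (-0.51, adjusted p = 0.0345), while the CGN-KO mean of 1.97 CPM did not pass the test against WT (-0.24, adjusted p = 0.264).

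MYL6B, a second essential light chain, was higher in all KO lines while MYL6 passed the test in none. WT libraries gave 17.7, 17.1, and 17.3 CPM, CGN-KO libraries 32.1, 29.0, and 29.7 CPM, CGNL1-KO libraries 23.3, 22.7, and 22.6 CPM, and double-KO libraries 33.8, 37.4, and 32.0 CPM. WT, CGNL1-KO, and the remaining KO libraries formed 3 levels without overlap. The differences from WT were 0.77, 0.38, and 0.95 (limma, adjusted p = 1.28e-06, 0.00199, and 1.13e-07), and CGN-KO cells exceeded CGNL1-KO cells by 0.39 (adjusted p = 0.00326). Of the reads of MYL6 and MYL6B together, MYL6B held 2.87% ± 0.200, 5.15% ± 0.0938, 3.91% ± 0.245, and 5.81% ± 0.491. The spans of MYL6 and MYL6B overlap in the RefSeq annotation, so reads of one may have been counted to the other, which leaves the MYL6B values uncertain.

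The genes whose profile over the 12 libraries was most like that of a called chain were found by Pearson's r of log2(CPM + 1), which is given as a description without a test, since the libraries share their genotypes. For MYH14 these were MOCS1 (r = 0.986), LOC106559977 (r = 0.975), and CERK (r = 0.974). For MYL9 they were FTL (r = 0.983), RASL10B (r = 0.983), and MTMR3 (r = 0.981). MYH14 and MYL9 themselves had an r of 0.66, MYH14 and MYH10 one of 0.735, and MYH14 and MYH9 one of -0.149. A choice by likeness itself leads to a shared order of the genotypes. In MYH14 and its 3 nearest genes CGN-KO cells had the highest mean, as with CERK at 42.9 CPM in WT and 82.9, 66.3, and 68.0 CPM in CGN-KO, CGNL1-KO, and double-KO cells. In MYL9 and its nearest genes double-KO cells had the highest mean, as with FTL, the ferritin light chain, at 298 CPM in WT and 438, 403, and 594 CPM in the KO lines.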

How the data were processed

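mRNA levels were measured by RNASeq in 12 libraries of MDCKII cells, 3 for each of 4 genotypes. The authors seeded 300000 cells, harvested them after 3 d by trypsin, made TruSeq stranded libraries with 500 ng of RNA, read 100 nt from one end, aligned the reads with STAR (2.7.0f) to the dog genome CanFam3.1, and counted them per gene with HTSeq (0.9.1). The annotation release and the strand setting are not given in the sources used here. The deposited values are a signal in CPM scaled by library size and the edgeR TMM factor. They are whole multiples of what 1 read is worth, within 0.01, so reads were recovered, 16837532 to 30086076 per library. Columns that map to no sample numbered 0.

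A gene was tested when 3 or more libraries exceeded 1 CPM, on log2(CPM + 1) with limma 3.58.1 (trend) in R 4.3.3, with all 12 libraries in 1 unblocked fit, and called at an adjusted p below 0.05 (Benjamini-Hochberg over all genes tested). Shares and the ratio of MYH14 to MYH10 were compared by exact permutation F tests (7 tests, unadjusted). Alternatives were a pseudocount of 0.5, no filter, edgeR 4.0.16 and DESeq2 1.42.0 on the recovered reads, library totals as the scale, the replicate number as a block, only the genotypes compared, other sums, and leaving out each library. The steps were tested on simulated data. Plots were drawn with matplotlib 3.10.9.

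CGN-KO libraries deviated from their group means across genes together with same-numbered CGNL1-KO libraries (r = 0.632, 0.475, and 0.179 for numbers 1, 2, and 3). CGN-KO library 3 deviated more with CGNL1-KO library 2 (r = 0.320), so only the numbers 1 and 2 pair these lines clearly. This comes from the data, as the labels do not say what a number marks. Same-numbered WT and single-KO libraries had r of 0.318 to 0.373 for the numbers 1 and 2. For number 3 their r was -0.0822 and 0.011. Same-numbered pairs with double-KO libraries had r of -0.235 to 0.0859.

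Named are the 6 chains, CGN and CGNL1, genes of the NM2 pathway list called with a fold of at least 1.5 against WT, and the 3 genes with the highest Pearson r with each chain called in the F test. The members and lists were chosen with earlier results of these data known. Symbols were matched to RefSeq (UU_Cfam_GSD_1.0) for gene order only, as its build differs from that of the files. No sequences, transcript lengths, or coordinates are given.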

Additional observations from a re-analysis of the deposited data

Results flagged for a closer look

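MYL9 was flagged because its effects differed between genotypes that share the WT control. Its level in double-KO cells exceeded that in CGN-KO cells by 0.63 on the log2(CPM + 1) scale (limma, adjusted p = 0.000922) and that in CGNL1-KO cells by 0.77 (adjusted p = 6.97e-05), in all 3 double-KO libraries. Over all alternatives the first difference ranged from 0.55 to 0.68 and the second from 0.69 to 0.84, and both stayed called. Each KO genotype was 1 clone, so the second knockout and other differences of the clone cannot be told apart.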

How the results depend on the processing

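No difference of a chain gene from another genotype that was called in the fit of all libraries changed its sign. The calls of MYL9 against WT and of double-KO against each single KO line held under all alternatives run, as did those of MYH14 in CGN-KO and double-KO cells. The number of chain genes called between CGNL1-KO and WT cells fell from 2 to 1 in a fit of only these genotypes and ranged from 1 to 2 when 1 library was left out, as the MYH14 call was lost. Leaving out 1 library gave 0 to 1 called genes between CGN-KO and CGNL1-KO cells and 1 to 2 between double-KO and CGNL1-KO cells, where the higher counts came without CGNL1-KO library 1. For the shares, the range of the 4 genotype means over these fits was 3.33 to 5.93 percentage points for MYH9, 3.42 to 5.24 for MYH14, 2.73 to 4.41 for MYL6, and 1.47 to 3.27 for MYL12B, and the MYL6 share lost its call in 5 of 12 (exact permutation test, p up to 0.0964) while the MYL12B share gained one without WT library 2 (p = 0.0484).

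A replicate block, which leaves out the unnumbered double-KO library, gave 1 called chain gene (MYH14) between CGN-KO and CGNL1-KO cells, and also 1 when only the libraries of these lines entered, a fit chosen after seeing the data. The blocked shares ranged over 4.85 percentage points for MYH9 (exact permutation within numbers, p = 0.0295), 4.49 for MYH14 (p = 0.00868), and 3.58 for MYL6 (p = 0.059). The block changed no other call of a chain gene or share. Where WT or double-KO libraries enter, it treats the numbers as pairs in all 4 genotypes, which the double-KO libraries and WT library 3 did not bear out. The counts of pathway genes called in CGNL1-KO cells ranged from 3 to 6 over the alternatives. Shares from CPM divided by coding length were not run, since no lengths were at hand. The cause of these changes was not tested. The 178 to 274 reads of MYL9 in WT libraries are the thinnest counts among the chains.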

Other observations

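MYL4, an essential light chain known from embryonic and atrial muscle, belongs to no comparison above and was named after its values were seen. It gave 86.1, 83.7, and 88.0 CPM in WT, 106, 106, and 104 CPM in CGN-KO, 109, 116, and 120 CPM in CGNL1-KO, and 114, 112, and 110 CPM in double-KO cells. All KO libraries lay above WT, by 0.29, 0.41, and 0.38 on the log2(CPM + 1) scale (limma, adjusted p = 0.000597, 3.94e-05, and 3.89e-05). Of the fixed muscle markers, 6 of 7 were not listed and the other, ACTA2, was at most 0.589 CPM. With MYL4, MYL5, and MYL6B in the light-chain sum, an alternative added after seeing the data, the MYL9 share was 0.994% ± 0.109 in WT, 2.09% ± 0.187 in CGN-KO, 1.84% ± 0.184 in the CGNL1-KO line, and 3.19% ± 0.0428 in double-KO cells.

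CGNL1 mRNA was lower in CGN-KO than in WT cells, at 6.92, 5.04, and 6.02 CPM against 12.3, 9.22, and 7.74 CPM, a difference of -0.61 (limma, adjusted p = 0.0201).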
